A study of Mus musculus with 12 samples.

Results

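The 10 genes described here encode the enzymes, matrix proteins, transporters and membrane proteins that make melanin and build the melanosome: Tyr, Tyrp1, Dct, Pmel, Mlana, Slc45a2, Slc24a5, Oca2, Gpr143 and Trpm1. They were taken by gene name from the deposited count table and are 10 of its 34513 genes, and all 10 passed the filter on low counts. RNA-seq was carried out on cultures of 3 mouse lines: Melan-A, which is labelled nontumorigenic, and B16F0 and B16F10, which are labelled melanoma. Each line was measured untreated and after SX-682, an antagonist of the chemokine receptors CXCR1 and CXCR2, so that there were 6 groups of 2 libraries (Melan-A untreated, Melan-A SX-682, B16F0 untreated, B16F0 SX-682, B16F10 untreated and B16F10 SX-682). The comparison asks what the compound does to cultures of these lines, rather than to whole tumors. How pure the cultures were was not tested. The labels give no further genetic change, dose, time or vehicle, and they do not say whether the 2 libraries of a group came from separate cultures, so that the p-values measure only the spread between these libraries.

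Melanin is made inside melanosomes, lysosome-related organelles of the pigment cell, from the amino acid tyrosine. Tyrosinase (Tyr) catalyses the first, rate-limiting oxidation, and Tyrp1 and Dct act on later intermediates of eumelanin synthesis, while Pmel forms the fibrils on which the pigment is laid down. Many of these genes are known targets of the melanocyte transcription factor MITF, which binds E-box motifs such as CATGTG, often in the extended M-box form TCATGTG.

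The promoters of the 10 genes were searched for these motifs, as a description. RefSeq windows on GRCm38.p6, from 250 bases before to 50 bases after a gene's start, were found for 6 of the 10 genes (Tyr, Tyrp1, Dct, Slc24a5, Oca2 and Trpm1, the last with 2 windows). The motif TCATGTG was searched on both strands, together with CATGTG, which every TCATGTG also holds, and with the other E-box CACGTG. The windows of the 3 enzymes are given whole and 31 or 30 bases around a motif are given for the other 3 genes, 5' to 3' on the gene's strand, with the motifs in capitals and in reverse complement where the motif lies on the opposite strand (they then begin with CACATG).
Tyr (chr7:87493463-87493762, minus strand): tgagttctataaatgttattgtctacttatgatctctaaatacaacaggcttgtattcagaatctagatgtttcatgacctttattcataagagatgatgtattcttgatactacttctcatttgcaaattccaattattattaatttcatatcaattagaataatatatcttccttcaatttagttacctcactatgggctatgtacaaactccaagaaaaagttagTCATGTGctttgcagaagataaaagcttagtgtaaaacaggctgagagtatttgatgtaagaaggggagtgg
Tyrp1 (chr4:80833963-80834262, plus strand): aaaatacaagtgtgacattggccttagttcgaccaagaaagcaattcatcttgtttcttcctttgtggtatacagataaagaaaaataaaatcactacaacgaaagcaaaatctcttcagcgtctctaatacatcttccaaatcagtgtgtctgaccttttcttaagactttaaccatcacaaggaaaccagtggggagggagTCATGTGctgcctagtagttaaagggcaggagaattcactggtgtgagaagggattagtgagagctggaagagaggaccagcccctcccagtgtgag
Dct (chr14:118052197-118052496, minus strand): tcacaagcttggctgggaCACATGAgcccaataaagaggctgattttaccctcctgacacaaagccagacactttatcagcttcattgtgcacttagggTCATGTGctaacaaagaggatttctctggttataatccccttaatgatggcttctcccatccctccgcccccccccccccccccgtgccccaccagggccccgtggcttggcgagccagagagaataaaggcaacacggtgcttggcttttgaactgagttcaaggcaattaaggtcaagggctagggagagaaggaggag
Trpm1 (chr7:64153681-64153711, plus strand): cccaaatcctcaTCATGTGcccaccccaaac
Slc24a5 (chr2:125068102-125068132, plus strand): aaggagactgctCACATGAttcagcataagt
Oca2 (chr7:56239561-56239590, plus strand): ttgagcttgctaCACATGgctggaattttc
TCATGTG was present in windows of 5 of these 6 genes, and Oca2 held CATGTG only. In all 32851 RefSeq windows of the same length, 3.77% held TCATGTG, 14.2% held CATGTG and 7.15% held CACGTG. The motif began 22 bases before the RefSeq start in Tyr and 47 bases before it in Tyrp1. In the deposited coordinates Tyrp1 begins earlier, at chr4:80834123, so that the 31 bases around this motif (chr4:80834154-80834184) lie inside the gene. Dct held TCATGTG at -151 on the same strand and at -232 on the opposite strand. In Trpm1 it lay at -142 of one window, while the other window held CACGTG at -229 and CATGTG at 37. A match is a description of the letters, and no binding was measured here. Whether the motifs bear on the response to SX-682 was not tested.

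The libraries held between 48876982 and 85322092 counts on genes, and 0.756% to 1.24% of these were mitochondrial, with a higher share after SX-682 in each line. The libraries of a group differed by more than sampling noise (chi-square per gene 2.87 to 5.25), and none was counted as a repeat of another. With 2 libraries against 2, an exact two-sided permutation test cannot give a p below 0.333, so the tests rest on the spread that edgeR shares over 18338 genes, where the biological coefficient of variation was 2.78%. Levels are given as CPM, the usual depth-scaled count, after TMM scaling, and levels of different genes are compared only as CPM per kilobase of exon.

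In untreated cells the pigment genes were far higher in the melanoma lines than in the libraries labelled Melan-A. The labels do not say whether the Melan-A cultures were pigmented, and Tyr, Oca2, Gpr143 and Trpm1 had between 1 and 77 counts in its untreated libraries, so that each contrast with Melan-A is one with libraries so labelled. All 10 were higher in B16F0 than in Melan-A (35.3% of all genes tested were higher) and all 10 were higher in B16F10 than in Melan-A (33.4% of all genes). Leaving out Gpr143, the log2 differences ran from 2.48 (Mlana) to 9.29 (Tyr) in B16F0 and from 3.12 (Mlana) to 9.36 (Pmel) in B16F10. Gpr143, a melanosomal G protein-coupled receptor, had 1 count in each untreated Melan-A library against 1873 and 1648 counts in B16F0 and 4694 and 5066 counts in B16F10. Against a floor of 3 counts per library in Melan-A it was at least 731-fold higher in B16F0 and at least 2315-fold higher in B16F10. The floor covers counting error only.

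**Figure D1:**
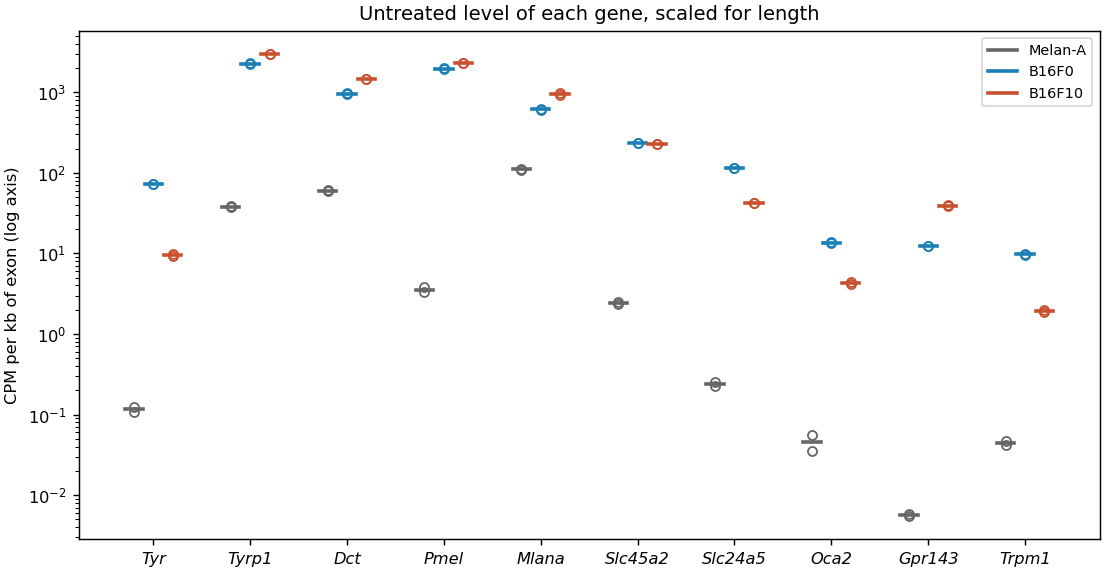
Level of each gene in untreated cells as CPM per kilobase of exon on a log axis, with a circle for each of the 2 libraries of a line and a bar at their mean. All 10 genes are lowest in Melan-A, and Tyrp1 and Pmel lead in both B16 lines, at 2277 and 1968 CPM per kilobase in B16F0 and 2956 and 2329 in B16F10.

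Scaled for length, the order in both B16 lines began with Tyrp1, Pmel, Dct, Mlana, Slc45a2 and Slc24a5. In B16F0 this ran from 2277 ± 9.9 (SD, n = 2) CPM per kilobase for Tyrp1 to 115 ± 0.86 for Slc24a5, followed by Tyr at 72.5 ± 0.30, Oca2 at 13.6 ± 0.24, Gpr143 at 12.4 ± 0.18 and Trpm1 at 9.77 ± 0.18. In B16F10 Slc24a5 (42.4 ± 0.039 CPM per kilobase) and Gpr143 (39.3 ± 0.58) stood above Tyr (9.58 ± 0.46), and Trpm1 was again the lowest at 1.92 ± 0.074. In Melan-A the order began with Mlana at 110 ± 3.8 CPM per kilobase, then Dct at 60.2 ± 0.93 and Tyrp1 at 37.8 ± 0.74, and the libraries of Oca2 and Trpm1 overlapped near the bottom. Between the untreated B16 lines, Tyrp1, Dct, Pmel, Mlana and Gpr143 were higher in B16F10 (5 of 10, with 30.8% of all genes higher) and Tyr, Trpm1, Oca2 and Slc24a5 were lower (4 of 10, with 31.2% of all genes lower). The difference was largest for Tyr, at -2.92 on the log2 scale (SE 0.037, adjusted p = 1.19e-31), and Slc45a2 did not pass the test (log2 difference -0.04, 95% interval -0.09 to 0.01, adjusted p = 0.207), though it did under upper-quartile scaling (-0.09, adjusted p = 0.00186) and where at least 10 counts in every library were required (-0.06, adjusted p = 0.0289). The 3 comparisons of untreated lines share their control libraries.

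The low pigment genes of Melan-A stood beside high levels of the lineage transcription factors Sox10 and Pax3, and beside a lower level of Mitf than in the B16 lines. Across the 6 lineage markers Mitf, Sox10, Pax3, Kit, Ednrb and S100b, all 6 were over the floor in untreated Melan-A and their summed level was 1252 to 1279 CPM, against 1142 to 1153 CPM in B16F0 and 1301 to 1314 CPM in B16F10. Sox10 led this sum in Melan-A, at 670 ± 22 CPM (SD, n = 2). Mitf was 102 ± 1.6 CPM there, against 367 ± 6.1 CPM in B16F0 and 420 CPM in B16F10. The endothelin receptor gene Ednrb and Kit, the receptor for stem cell factor, had 4 to 11 counts in the untreated Melan-A libraries. Both had 0 counts in untreated B16F10, where 4 of the 6 lineage markers were over the floor. In untreated B16F0, 5 of the 6 were over it, with 0 to 1 counts of Ednrb and 293 to 315 counts of Kit. Tyr was counted 77 and 69 times in the untreated Melan-A libraries, and pigment itself was not measured. Fibroblast markers summed to 113.8 to 115.4 CPM in untreated Melan-A and 93.5 to 94.8 CPM after SX-682, with all 6 over the floor, and were at most 16.8 CPM in the B16 libraries. Of 5 immune markers, 4 were over the floor in Melan-A, led by Cd68, and their sum went from 25.1 to 25.3 CPM without treatment to 50.9 to 52.2 CPM with SX-682. In the B16 lines, also led by Cd68, that sum was 10.3 to 12.1 CPM in untreated and 14.2 to 16.2 CPM in treated B16F0, and 26.0 to 27.0 CPM in untreated and 24.6 to 25.4 CPM in treated B16F10. The rise of the immune sum in Melan-A lay in Cd68, whose mean went from 16.02 to 44.6 CPM with SX-682. Mean Lyz2 fell there from 6.996 to 4.554 CPM, and Csf1r went from 2.015 to 2.257 CPM. Ptprc went from 0.1549 to 0.1515 CPM and Itgam from 0.02201 to 0.01403 CPM. Of 5 keratinocyte markers, 3 were over the floor in Melan-A, with a sum of at most 4.05 CPM, and Krt1 was at 0 in the untreated libraries. The part of these markers in the results was not tested, and in bulk RNA fewer pigmented cells cannot be told apart from less RNA per cell.

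SX-682 lowered the pigment genes as a group in both melanoma lines. All 10 genes fell in B16F0, where 25.0% of all genes tested were lowered and 25.1% raised, and all 10 fell in B16F10, where 25.3% were lowered and 25.5% raised. All 10 were thus lowered in both B16 lines, as were 17.2% of all genes. In Melan-A, 6 of the 10 fell (24.7% of all genes fell), 1 rose (23.4% rose), and Pmel, Oca2 and Gpr143 did not pass the test. Without any one library, 4 or 5 fell in Melan-A. The median log2 fold change of the 10 genes was -0.49 in B16F0 and -0.88 in B16F10. It was -0.39 in Melan-A over the 9 genes other than Gpr143. The median of all genes was 0 in each line, but TMM scaling centres most genes near 0, so that this value is no result of its own. In the B16 lines both SX-682 libraries lay below both untreated libraries for each of the 10 genes. The share of all genes that separated in this way is not given here, so that this only describes the values.

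**Figure D2:**
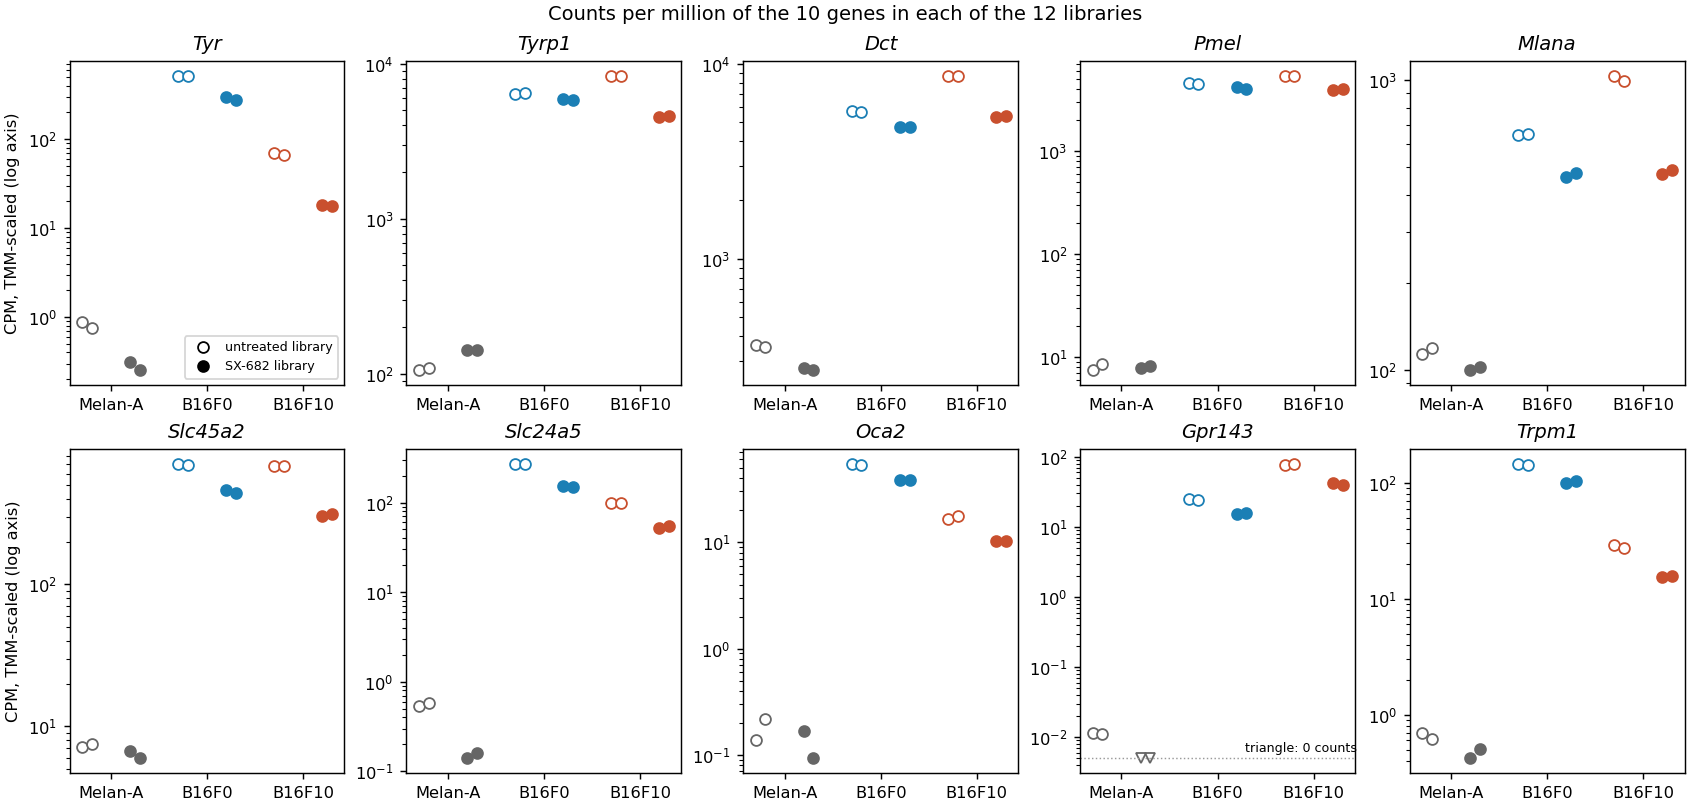
CPM of the 10 genes in each of the 12 libraries on log axes that differ between panels, with open circles for untreated and filled circles for SX-682 libraries, 2 of each per line. In B16F0 and B16F10 all filled circles lie below the open circles, and in Melan-A those of Tyrp1 lie above, while those of Pmel and Oca2 overlap with the untreated ones (triangles mark 0 counts of Gpr143).

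Among the enzymes, Tyr (chr7:87424771-87493512, minus strand, on GRCm38 as for the genes that follow) had the most negative fold change in each line. In B16F10 it went from 70.4 and 65.8 CPM in untreated cells to 18.3 and 17.6 CPM with SX-682. In B16F0 it went from 516.5 and 513.5 CPM to 301.8 and 276.5 CPM. In Melan-A, 77 and 69 counts (0.892 and 0.760 CPM) became 22 and 19 counts (0.309 and 0.253 CPM). In no line did the groups overlap. The log2 fold changes were -1.92 in B16F10 (SE 0.047, adjusted p = 4.71e-24), -0.83 in B16F0 (SE 0.033, adjusted p = 9.68e-19) and -1.55 in Melan-A (SE 0.25, adjusted p = 4.96e-06). Tyr thus lay below the 5th percentile of all genes in B16F10 (-1.35) and in Melan-A (-1.08), and above it in B16F0 (-1.24). The wide interval in Melan-A (-2.06 to -1.04) goes with the few counts there.

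Tyrp1, which acts in the later steps of eumelanin synthesis and stabilises tyrosinase (chr4:80834123-80851719, plus strand), was the only one of the 10 genes that rose in one line and fell in the other two. In Melan-A it rose from 105.4 and 108.3 CPM to 142.7 and 142.6 CPM (log2 fold change 0.42, SE 0.017, adjusted p = 2.59e-18). In B16F0 it fell from 6419 and 6458 CPM to 5892 and 5824 CPM. Its mean level there fell by 9.01%. In B16F10 it fell from 8371 and 8350 CPM to 4558 and 4627 CPM. The log2 fold changes were -0.14 in B16F0 (SE 0.015, adjusted p = 8.95e-09) and -0.86 in B16F10 (SE 0.015, adjusted p = 2.52e-27), and in no line did the 2 groups overlap. Untreated B16F10 had more Tyrp1 than untreated B16F0, and after SX-682 the order of the 2 lines was the opposite.

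Dct, dopachrome tautomerase (chr14:118012790-118052244, minus strand), fell in all 3 lines without overlap between groups. It went from 358.5 and 350.8 CPM to 274.0 and 267.9 CPM in Melan-A, from 5720 and 5660 CPM to 4721 and 4719 CPM in B16F0, and from 8668 and 8678 CPM to 5342 and 5401 CPM in B16F10. The log2 fold changes were -0.39, -0.27 and -0.69 in that order (SE 0.016 in each, adjusted p at most 4.83e-15).

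RNA of Pmel and Mlana, which encode a matrix and a membrane protein of the early melanosome, fell in B16F10 more than in B16F0. Pmel, the fibril protein (chr10:128704195-128720238, plus strand), went from 4548 and 4475 CPM to 4141 and 4024 CPM in B16F0 and from 5324 and 5350 CPM to 3899 and 3969 CPM in B16F10. Pmel thus changed by -0.14 (SE 0.021, adjusted p = 1.26e-06) and -0.44 on the log2 scale, respectively (SE 0.021, adjusted p = 6.83e-17 for B16F10). In Melan-A the libraries overlapped, at 7.53 and 8.70 CPM without and 7.83 and 8.18 CPM with SX-682, and the log2 fold change was -0.02 (95% interval -0.12 to 0.08, adjusted p = 0.793). Exons of Pmel share 105 of its 2292 exon bases with Dgka and 34 with Cdk2, both on the other strand. In untreated Melan-A, Pmel had 650 and 790 counts, Dgka 991 and 1038, and Cdk2 4725 and 4820. With SX-682 Dgka changed by 0.54 and Cdk2 by -0.73 there on the log2 scale. Since the use of strand in counting is not given, reads of these genes may enter the Pmel counts, which was not tested.

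Mlana (MART-1), which binds Pmel and is needed for its processing (chr19:29697824-29708634, plus strand), fell in every line. It went from 113.6 and 119.3 CPM to 99.7 and 102.5 CPM in Melan-A, and from 645.3 and 650.0 CPM to 463.7 and 476.1 CPM in B16F0. In B16F10 it went from 1034 and 988.9 CPM to 472.1 and 490.4 CPM, so that the SX-682 libraries of the 2 B16 lines overlapped although their untreated libraries did not. On the log2 scale Mlana changed by -0.20 in Melan-A (SE 0.029, adjusted p = 5.94e-07), -0.46 in B16F0 (SE 0.026, adjusted p = 3.51e-15) and -1.07 in B16F10 (SE 0.026, adjusted p = 5.27e-24).

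The 3 transporters of the melanosome did not share one pattern. Slc45a2, which raises the pH of the melanosome (chr15:11000721-11029233, plus strand), went from 706.4 and 694.5 CPM to 459.5 and 443.1 CPM in B16F0 and from 682.7 and 681.8 CPM to 303.0 and 313.1 CPM in B16F10. These were log2 fold changes of -0.63 (SE 0.026, adjusted p = 1.68e-18) and -1.15 (SE 0.026, adjusted p = 1.07e-24), from untreated levels that did not pass the test between the 2 lines. In Melan-A it went from 7.12 and 7.45 CPM to 6.72 and 5.95 CPM (log2 fold change -0.20, SE 0.060, adjusted p = 0.00508). This call was lost without SX-682 replicate 2 of Melan-A (-0.11, adjusted p = 0.279), without untreated replicate 2 (-0.17, adjusted p = 0.062) and in a fit of Melan-A alone (-0.20, adjusted p = 0.0999).

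Slc24a5, a potassium-dependent sodium and calcium exchanger (NCKX5), fell in both B16 lines (chr2:125068124-125088677, plus strand). It went from 269.7 and 266.9 CPM to 152.1 and 150.8 CPM in B16F0 and from 98.8 and 98.6 CPM to 52.3 and 55.2 CPM in B16F10. The log2 fold changes were -0.82 (SE 0.030, adjusted p = 1.2e-19) and -0.88 (SE 0.034, adjusted p = 3.21e-19), and their difference was -0.05 (95% interval -0.15 to 0.04, adjusted p = 0.445). In Melan-A 46 and 53 counts became 10 and 12 counts, a log2 fold change of -1.88 (95% interval -2.43 to -1.33, adjusted p = 6.72e-07). Its exons share 921 of 2330 bases (39.5%) with those of Myef2 on the other strand, and whether strand was used in counting is not given in the sources used here, so that Slc24a5 is uncertain, above all in Melan-A. Myef2, chosen after its values were seen, had 8870 and 8966 counts in untreated Melan-A and 4213 and 4471 counts with SX-682, and it changed by -0.76 on the log2 scale in that line, by -0.72 in B16F0 and by -0.49 in B16F10.

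Oca2, the melanosomal anion transporter encoded by the pink-eyed dilution locus (chr7:56239760-56536518, plus strand), fell in the B16 lines. It went from 54.4 and 53.1 CPM to 38.3 and 38.5 CPM in B16F0 (log2 fold change -0.49, SE 0.058, adjusted p = 2.38e-08). In B16F10 it went from 16.7 and 17.6 CPM to 10.3 and 10.3 CPM (log2 fold change -0.73, SE 0.072, adjusted p = 4.26e-10). In Melan-A the counts overlapped, at 12 and 20 untreated and 12 and 7 with SX-682, and a change was not detectable at this depth (log2 fold change -0.47, 95% interval -1.30 to 0.36, adjusted p = 0.366).

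Of the 2 remaining genes, Gpr143 (OA1, chrX:152781921-152808646, plus strand), which governs melanosome size and number, went from 25.0 and 24.5 CPM to 15.1 and 15.8 CPM in B16F0 and from 77.6 and 79.3 CPM to 42.0 and 39.2 CPM in B16F10. That was a log2 fold change of -0.68 (SE 0.060, adjusted p = 1.08e-10) and of -0.95 (SE 0.051, adjusted p = 1.51e-15). In Melan-A it had 1 and 1 counts untreated and 0 and 0 counts with SX-682, at or under the floor in all 4 libraries, so that no fold change is given.

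Trpm1, a cation channel of melanocytes and retinal bipolar cells (chr7:64153835-64269775, plus strand), went from 145.9 and 142.2 CPM to 100.7 and 103.1 CPM in B16F0 (log2 fold change -0.50, SE 0.038, adjusted p = 2.89e-12). In B16F10 it went from 29.1 and 27.6 CPM to 15.3 and 15.6 CPM (log2 fold change -0.87, SE 0.052, adjusted p = 7.26e-15). In Melan-A, 60 and 56 counts became 30 and 38 counts (log2 fold change -0.49, SE 0.21, adjusted p = 0.0498). That last call lay at the threshold, and it was lost in DESeq2 (adjusted p = 0.0661) and without any one of the 12 libraries (adjusted p from 0.0562 to 0.309).

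**Figure D3:**
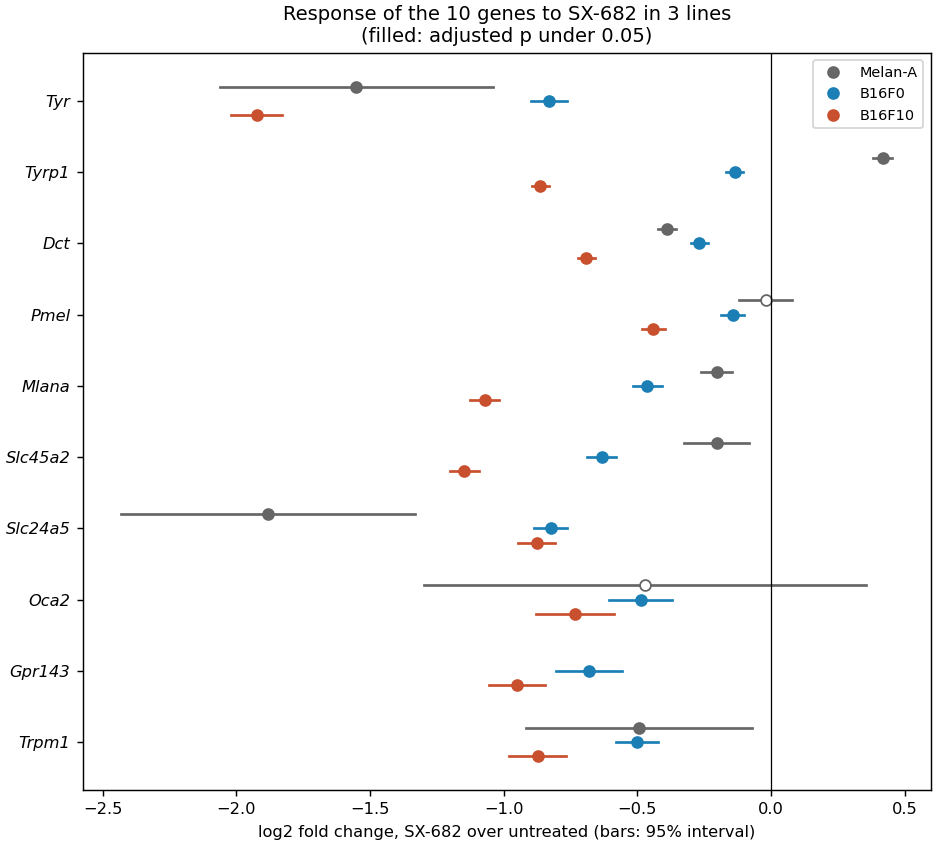
Log2 fold change of each gene with SX-682 in each line (horizontal axis), with bars for the 95% interval and filled circles for an adjusted p under 0.05, without Gpr143 in Melan-A, which has no fold change. In B16F10 the circles lie further to the left than in B16F0 for every gene, with overlapping intervals for Slc24a5 and Oca2, and Tyrp1 in Melan-A is the only circle to the right of 0, at 0.42.

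Tested directly, the response differed among the 3 lines for 9 of the 10 genes (47.4% of all genes differed), and Oca2 did not pass (adjusted p = 0.0792). For Gpr143 this call (adjusted p = 0.0114) rests on the 2 B16 lines. The mean response of the B16 lines differed from that of Melan-A for 6 genes (35.8% of all genes differed). It was lower for Tyrp1 (-0.92, SE 0.020, adjusted p = 3e-24), Slc45a2 (-0.69, SE 0.063), Mlana (-0.56, SE 0.034), Pmel (-0.27, SE 0.050) and Dct (-0.09, SE 0.020), all on the log2 scale. It was higher for Slc24a5 alone (1.03, SE 0.28, adjusted p = 0.00408), and this call was lost without SX-682 replicate 1 of Melan-A (adjusted p = 0.066). For Tyr the difference was 0.17 with a 95% interval of -0.36 to 0.71 (adjusted p = 0.7). For Dct and Tyr this mean joins B16 lines that lay on either side of Melan-A. The log2 fold changes of Dct were -0.27 in B16F0 and -0.69 in B16F10, against -0.39 in Melan-A. Those of Tyr were -0.83 and -1.92, against -1.55.

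SX-682 lowered 9 of the 10 genes more in B16F10 than in B16F0, all but Slc24a5. Over all genes, 14.9% had a lower and 15.3% a higher response in B16F10. The difference of the log2 fold changes was -1.09 for Tyr (SE 0.058, adjusted p = 8.51e-15), -0.73 for Tyrp1 (SE 0.022, adjusted p = 1.57e-20), -0.61 for Mlana (SE 0.037, adjusted p = 1.59e-13) and -0.51 for Slc45a2 (SE 0.037, adjusted p = 4.87e-12). It was smaller for Dct (-0.42), Trpm1 (-0.37), Pmel (-0.30) and Gpr143 (-0.27). The call of Gpr143 was lost without SX-682 replicate 2 of B16F10 (-0.22, adjusted p = 0.0648), where 7 of the 10 genes differed. For Oca2 it was -0.25 (SE 0.092, adjusted p = 0.0425). That call was lost in 7 of the 12 fits without 1 library (adjusted p up to 0.153, without untreated B16F10 replicate 2), under upper-quartile scaling (adjusted p = 0.056), without the filter (adjusted p = 0.0776) and with a replicate block (adjusted p = 0.0539).

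The 10 genes took up a sizeable share of the RNA in the melanoma lines. They held 1.90% ± 0.0051 (SD, n = 2) of all counts in untreated B16F0 and 1.60% ± 0.020 with SX-682, and 2.28% ± 0.0068 in untreated B16F10 and 1.40% ± 0.0041 with SX-682. In Melan-A the share was 0.0634% ± 0.00024 and 0.0571% ± 0.00026. B16F10 thus had the larger share without treatment and the smaller share with it. Of the counts on the 10 genes in untreated B16F10, Dct held 35.6%, Tyrp1 34.3% and Pmel 21.9%, and Tyr held 0.280%. In untreated Melan-A Dct held 59.5%, Mlana 19.6% and Tyrp1 17.9%, and Pmel held 1.36%. With SX-682 the share of Tyrp1 within the 10 genes was 26.9% in Melan-A and 31.0% in B16F10.

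**Figure D4:**
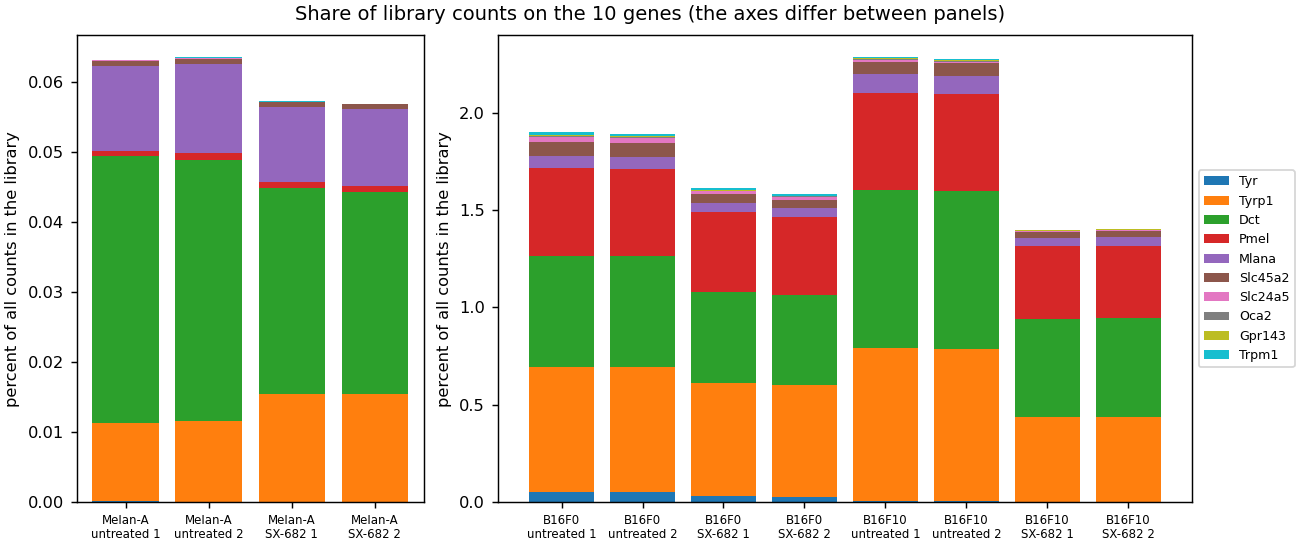
Percent of each library's counts on the 10 genes, stacked by gene, for Melan-A (left) and the B16 lines (right, on a larger scale). Untreated B16F10 libraries reach 2.28 and 2.27%, and the SX-682 libraries of that line stand at 1.40% each, mostly Dct, Tyrp1 and Pmel.

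Mitf fell in all 3 lines, while the regulators as a list moved in both directions. Of 11 regulators listed, 10 were tested, and 1 was lowered and 6 raised in Melan-A, 3 lowered and 3 raised in B16F0, and 3 lowered and 5 raised in B16F10. Set beside these counts, 24.7% of all genes tested were lowered and 23.4% raised in Melan-A, 25.0% and 25.1% in B16F0, and 25.3% and 25.5% in B16F10. Mitf, the master regulator of the lineage, went from 370.9 and 362.3 CPM to 86.9 and 82.5 CPM in B16F0. In B16F10 it was 420.3 CPM in both untreated libraries and 186.5 and 194.4 CPM with SX-682. In Melan-A it went from 103.2 and 100.9 CPM to 78.0 and 80.5 CPM. No groups overlapped, and the log2 fold changes were -2.11 in B16F0 (SE 0.030), -1.14 in B16F10 (SE 0.028) and -0.36 in Melan-A (SE 0.030). Mitf thus fell more in B16F0 than in B16F10, where the difference was 0.97 (SE 0.041, adjusted p = 4.87e-17), while 9 of the 10 pigment genes fell more in B16F10. The part of Mitf in the change of these genes was not tested.

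Sox10, which acts upstream of Mitf, fell by 20.6% in B16F0 and by 18.0% in B16F10 and rose in Melan-A (log2 fold changes -0.33, -0.29 and 0.16, adjusted p at most 4.71e-06). Pax3, which acts with Sox10, rose in all 3 lines, from 203.0 and 207.9 CPM to 451.0 and 450.5 CPM in B16F0. Its log2 fold changes were 1.13 in B16F0, 0.67 in Melan-A and 0.53 in B16F10 (SE 0.025 in each). Tfeb, a regulator of lysosomal genes from the same family as Mitf, rose by 0.34, 0.24 and 0.39 on the log2 scale in Melan-A, B16F0 and B16F10 (adjusted p at most 0.000603).

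Genes of melanosome biogenesis and transport were split. Of 26 tested, 7 were lowered and 14 raised in Melan-A, 12 lowered and 9 raised in B16F0, and 15 lowered and 7 raised in B16F10. The share of all genes lowered was 24.7%, 25.0% and 25.3% in the order given, and the share raised was 23.4%, 25.1% and 25.5%. Slc7a11, the cystine transporter that bears on pheomelanin, rose from 21.4 and 22.0 CPM to 141.0 and 138.9 CPM in B16F10 (log2 fold change 2.69, SE 0.036). It rose by 2.04 in B16F0 and by 0.84 in Melan-A on the log2 scale. Lyst, a regulator of lysosome-related organelle size, rose by 0.87 in Melan-A, while its rise was 0.57 in B16F0 and 0.27 in B16F10, again on the log2 scale. Myo5a, the motor of melanosome transport, fell in all 3 lines (log2 fold changes -0.38, -0.76 and -0.72 in Melan-A, B16F0 and B16F10). Bace2, which cleaves Pmel, fell likewise (-0.49, -0.60 and -0.66).

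**Figure D5:**
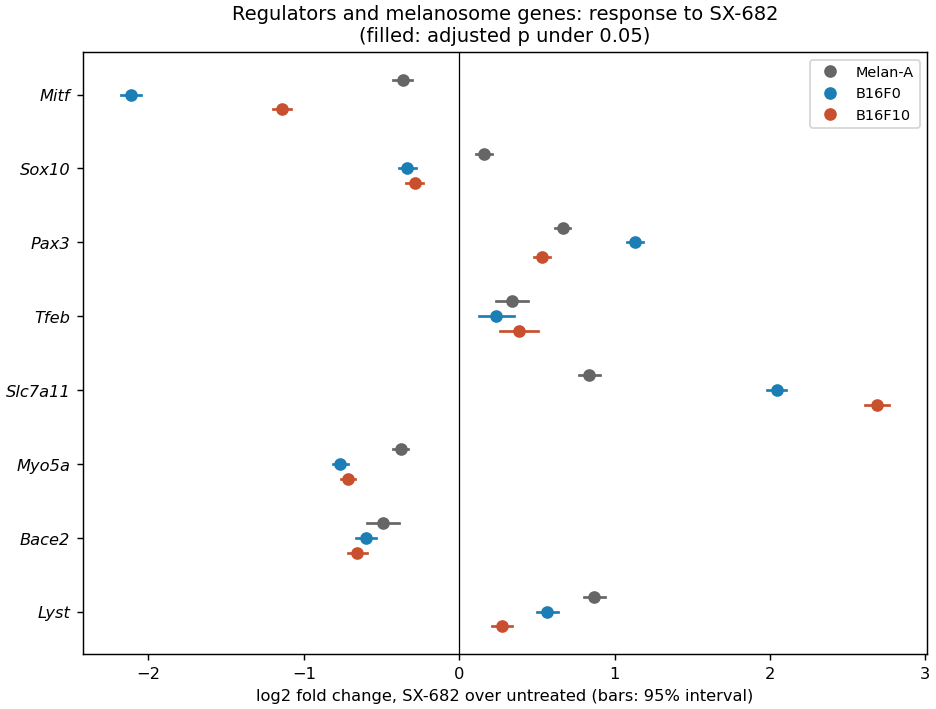
Log2 fold change with SX-682 (horizontal axis, bars for the 95% interval) of 4 regulators and 4 genes of melanosome biogenesis and transport in each line, all with an adjusted p under 0.05. Mitf lies furthest to the left in B16F0, at -2.11, and Slc7a11 furthest to the right in B16F10, at 2.69.

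Over the 12 libraries, the genes with a pattern most like the mean of the 10 were Mc1r (Pearson r = 0.998), Tmem242 (0.997), Ankfn1 (0.997), Psen2 (0.997) and Tubb3 (0.996), out of 9361 genes with a mean log2 CPM of at least 3. Mc1r encodes the melanocortin receptor that drives eumelanin synthesis, and its gene lies next to Tubb3 in the deposited coordinates. The libraries share their lines and scaling, and most of the spread behind these values is that between Melan-A and the B16 lines, so they are given as a description.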

How the data were processed

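RNA of cultured cells of 3 mouse lines was sequenced by the authors in 12 libraries, 2 libraries in each of 6 groups. The authors deposited raw counts of reads per gene for 34513 genes, without normalization, with gene lengths and coordinates. The submitters' processing notes name cutadapt, STAR, DESeq2 and mm10; versions, the counting program and its use of strand are not given in the sources used here, so reads of genes that overlap on opposite strands may not be told apart. Every sample column was matched to a library by its name, and groups and replicate numbers come from the labels.

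The counts were fitted in R 4.3.3 with edgeR 4.0.16, by the quasi-likelihood F-test on all 12 libraries and 6 groups together, after filterByExpr had kept 18338 genes, with TMM library scaling and a prior count of 0.125. P-values were adjusted over all genes tested by Benjamini-Hochberg, with a threshold of 0.05. The residual degrees of freedom were 6 and the prior degrees of freedom 21.9. Each standard error was computed from the fold change and its F value. Differences in response were tested as contrasts of the fold changes and by an F-test over the 3 lines. A floor of 3 counts per library was used. Library totals of 48876982 to 85322092 counts put that floor at 0.0330 to 0.0623 CPM. DESeq2 1.42.0, other scalings, filters, thresholds and a fold limit, a fit per line, a replicate block and each library left out were the alternatives. Same-numbered libraries of a line did not deviate together (correlations of -0.028, -0.011 and -0.0089), so the main fit has no block. The fit was also run on simulated counts, drawn as independent libraries with the same spread for every gene. Such counts cannot show whether the p-values hold for the libraries used here.

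The 10 genes and the lists were chosen with earlier results of these data known. Besides the 10, the text names Mitf, Sox10 and the other 2 regulators and 4 melanosome genes with the largest mean change among those past the threshold in all 3 lines, the 5 genes most alike in pattern, and markers of other cell types. Ednrb was below the filter, and Krt6a and Adgre1 were not analysed here. Promoter windows are from RefSeq (GRCm38.p6); Pmel, Mlana, Slc45a2 and Gpr143 had no window among them. Gene positions are those of the deposited table.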

Additional observations from a re-analysis of the deposited data

Results flagged for a closer look

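The response to SX-682 differed among the 3 lines, by edgeR's F-test of the difference itself, for 9 of the 10 pigment genes. The log2 fold changes of the 3 lines spanned 1.28 for Tyrp1 (adjusted p = 7.6e-26), 1.09 for Tyr (adjusted p = 1e-14), 1.06 for Slc24a5 (adjusted p = 0.00677), 0.94 for Slc45a2 (adjusted p = 4.21e-14) and 0.87 for Mlana (adjusted p = 7.51e-17). They spanned 0.42 for Dct (adjusted p = 3.14e-15), 0.42 for Pmel (adjusted p = 8.33e-10) and 0.38 for Trpm1 (adjusted p = 7.1e-05). For Gpr143, which had at most 1 count in a Melan-A library, the difference between the B16 lines was 0.27 (adjusted p = 0.0114 over the 3 lines). Among the other genes the span was 1.85 for Slc7a11, 1.75 for Mitf, 0.60 for Pax3, 0.60 for Lyst, 0.49 for Sox10 and 0.39 for Myo5a, each with an adjusted p of at most 4.99e-11.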

How the results depend on the processing

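A fold limit was the alternative that moved counts of genes by over 1.5 times. Under the others, libraries left out included, 4 to 6 genes were lowered in Melan-A and 7 to 9 differed in response between the B16 lines. With a log2 fold change of at least 1 required, 2 of the 10 genes were lowered and 0 raised in Melan-A, 0 were lowered in B16F0 and 3 in B16F10. Likewise 1 differed in response from Melan-A in the B16 lines, 1 between the responses of B16F10 and B16F0, and 5 between the untreated B16 lines. The lowered regulators became 0, 1 and 1, and the lowered melanosome genes 0, 0 and 0, in Melan-A, B16F0 and B16F10. Shares of all genes at this limit are not given here, so these counts cannot be set against them. The 5th percentile of the log2 fold changes of all genes with SX-682 was -1.08, -1.24 and -1.35 in the same order. With mitochondrial genes left out of the total, the share of counts on the 10 genes was 0.0640% and 0.0578% in untreated and treated Melan-A, 1.91% in untreated B16F0, and 2.30% and 1.42% in untreated and treated B16F10.

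Among values of single genes, 2836 kept their direction and their side of the threshold and 61 did not. Pmel in Melan-A, not past the threshold, changed sign under upper-quartile scaling (0.0080) and ranged from -0.112 to 0.092 without single libraries. The difference of Oca2 between the B16 lines and Melan-A, also not past it, ranged from -0.519 to 0.317 without single libraries. Pax3 between untreated B16F10 and Melan-A was -0.0087 where at least 10 counts in every library were required. The cause of these changes was not tested. In a fit with a replicate block, 5 genes were lowered in Melan-A, Trpm1 being lost (adjusted p = 0.0667), and 8 differed between the responses of the B16 lines, Oca2 being lost (adjusted p = 0.0539), while 10 were lowered in each B16 line. The numbers do not pair the libraries, and the block could not be estimated together with differences between untreated lines. The few counts of Tyr, Slc24a5, Oca2, Gpr143 and Trpm1 in Melan-A limit what can be seen there.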
